A study of Rattus norvegicus with 8 samples.

Results

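Superoxide and peroxides are removed in liver by a small group of abundant enzymes, and 10 of their genes are described here: the superoxide dismutases Sod1 and Sod2, catalase (Cat), the glutathione peroxidases Gpx1 and Gpx4, and the peroxiredoxins Prdx1, Prdx2, Prdx3, Prdx5 and Prdx6. They were picked by name, as the probes whose accession maps to these rat symbols, and all 10 were found among the 13031 gene symbols that the array's probes matched. RNA came from the liver of male Wistar/ST rats and was hybridised to 1-colour (Cy3) Agilent arrays. The control group (4 arrays) drank fructose-rich water with a high-fat diet for 5 weeks, and the Eucommia group (4 arrays) had the same diet with an extract of Eucommia ulmoides leaves as drinking water. Every array therefore comes from a rat on the fattening diet, and rats on ordinary food were not analysed here. The labels speak of liver from each rat but do not tie each array to a different animal. The p-values therefore measure only the spread between arrays, which may be technical.

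Superoxide leaks from the respiratory chain and from oxidases. Superoxide dismutases turn it into hydrogen peroxide, SOD1 in the cytosol and SOD2 in the mitochondrial matrix. The peroxide is then reduced to water by catalase inside peroxisomes, by glutathione peroxidases, which spend glutathione, and by peroxiredoxins, most of which are recharged by thioredoxin. Hepatocytes are rich in these enzymes because fatty acid oxidation and drug metabolism make peroxide continuously.

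Of the 10 genes, 1 passed the test between groups and it was lower in the Eucommia group: Gpx1, the selenocysteine enzyme that reduces hydrogen peroxide with glutathione. Its difference was -0.46 on the log2 scale, a ratio of 0.73, by the brighter of its 2 probes. None of the 10 was higher at an adjusted p under 0.05 by limma, and none other than Gpx1 had an unadjusted p under 0.05. The difference of the other 9 ran from -0.17 (Prdx3) to 0.18 (Prdx6). Of all 25128 genes tested, 24.6% were called, 18.4% higher and 6.17% lower. The 10 enzymes lie among the 8960 genes whose mean signal was above the arrays' 75th percentile, of which 9.69% were called, 3.73% higher and 5.96% lower. A count of 1 in 10 is near that background and is no result about the group. The median difference of the 10 was 0.02, against -0.04 over those 8960 genes and 0.02 over all genes. Without Eucommia replicate 2 or 3 the number of all genes called lower was 913 or 1016, against 1551 with all arrays.

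Values below are log2 signals minus each array's 75th percentile, so a value of 0 is the signal at that percentile and a step of 1 is a doubling. A difference is the Eucommia mean minus the control mean on this scale, and its interval is the 95% interval from limma. Levels of different genes are not compared, since probes differ in brightness. All 12 probes of the 10 genes were well above background on all 8 arrays, none was saturated, and no array lacked a value. Slide 1 carried the control arrays and slide 2 the Eucommia arrays, and they were scanned separately. Slide, scan and group cannot be told apart for any difference given here. Spots well above background made up 58.9% to 61.5% of the control arrays and 69.3% to 71.9% of the Eucommia arrays. The lowest processed signal so flagged was 11.2 to 13.7 on control arrays and 5.69 to 6.05 on Eucommia arrays. In whole liver, fewer cells of a type and less RNA per cell cannot be told apart.

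**Figure D1:**
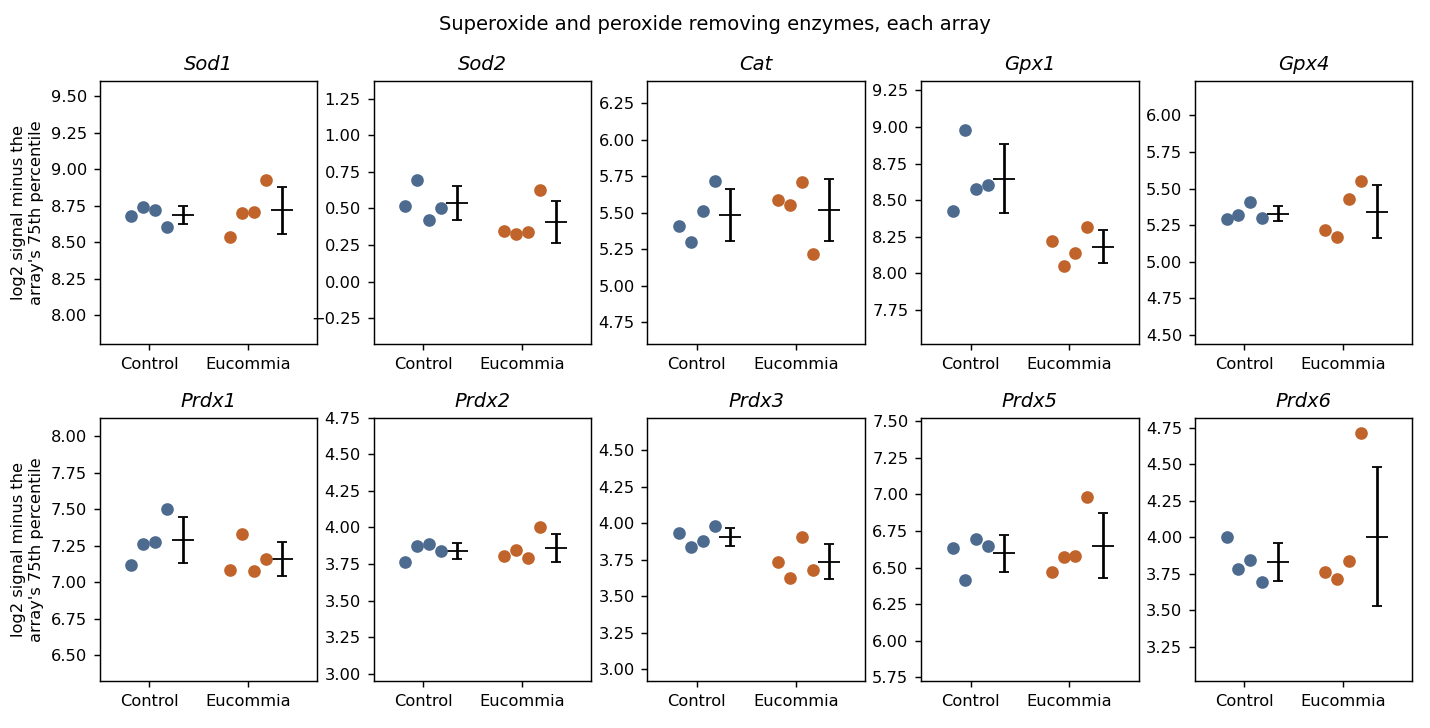
Log2 signal minus the array's 75th percentile for each of the 10 genes, 1 point per array, with the group mean and SD beside the points (control blue, Eucommia orange, n = 4 each); each panel spans the same height. Gpx1 is the gene whose groups do not overlap, and Eucommia replicate 4 stands high in Prdx6 at 4.71.

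Gpx1 is shown first because its groups were separate. On control replicates 1 to 4 it stood at 8.43, 8.98, 8.58 and 8.60, and on Eucommia replicates 1 to 4 at 8.22, 8.05, 8.14 and 8.32. Every Eucommia array was below every control array, and control replicate 2 was the highest. The means were 8.65 ± 0.24 and 8.18 ± 0.11 (SD, n = 4 each), and the difference was -0.46 ± 0.13 (SE), with an interval from -0.76 to -0.17 and an adjusted p of 0.0315 by limma. An exact 2-sided permutation test over the 8 arrays gave p = 0.0286, the smallest that 4 against 4 allow. Groups did not overlap in 28.5% of all genes tested and in 17.1% of the 8960 brighter genes. In 10.4% of the brighter genes they did not overlap and the Eucommia group was lower. The Gpx1 call was lost without control replicate 2 (-0.35, adjusted p by limma 0.0508), control replicate 3 (0.0505) or 4 (0.0564), or Eucommia replicate 1 (0.0619), 2 (0.0901) or 3 (0.0766). It was also lost with quantile normalization (-0.36, adjusted p by limma 0.0551), which makes the arrays' distributions equal, and with quantile normalization after another background correction (-0.32, 0.0591).

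The window before the annotated Gpx1 gene start is printed as the promoter of the only enzyme gene that passed. The 250 bases are chr8:117905212-117905461 of build GRCr8, plus strand, from RefSeq, read 5′ to 3′ toward the gene. The capitals mark a GC box, GGGCGG, 65 bases before the start, a sequence bound by SP1-type factors.
Gpx1: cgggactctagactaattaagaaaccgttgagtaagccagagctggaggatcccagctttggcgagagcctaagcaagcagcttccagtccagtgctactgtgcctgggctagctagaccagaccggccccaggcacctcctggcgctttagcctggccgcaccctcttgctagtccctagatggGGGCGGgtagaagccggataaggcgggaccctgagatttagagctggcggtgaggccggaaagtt
GC boxes, searched on both strands, were found for 8 of the 9 enzyme genes that the RefSeq table covers, some with more than 1 window. Counted by window, they were in 9 of 11 enzyme windows and in 30.47% of all 33469 windows of this length. The windows are rich in G and C (59.2% in Gpx1, against a median of 51.2% over all windows), and a match of letters is not a binding site.

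The array carries a second Gpx1 probe, and the call did not hold for it. This probe stood at 7.86, 8.42, 7.98 and 8.08 on control replicates 1 to 4 and at 7.97, 7.8, 7.8 and 8.0 on Eucommia replicates 1 to 4. The groups overlapped, and the difference was -0.19 ± 0.13 (SE; adjusted p = 0.338 by limma with every probe tested on its own). As a mean over both probes, the Gpx1 difference was -0.33 and did not pass (adjusted p = 0.106 by limma).

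Within an array the 2 Gpx1 probes also moved unequally, which was noticed in these data and then tested. The brighter probe exceeded the other by 0.56, 0.56, 0.59 and 0.52 on the control arrays and by 0.25, 0.25, 0.33 and 0.32 on the Eucommia arrays. This gap does not depend on how arrays are scaled by a constant, and its groups lay far apart. It was smaller in the Eucommia group by -0.27 ± 0.06 (SE; adjusted p = 0.0149 by limma over 1574 genes with 2 probes above background on all arrays). Without Eucommia replicate 2 it did not pass (-0.26, adjusted p = 0.0507 by limma). Such unequal change was common: 21.9% of those 1574 genes passed the same test. The size of the Gpx1 decrease thus depends on the probe, and where on the transcript each probe lies was not analysed here.

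**Figure D2:**
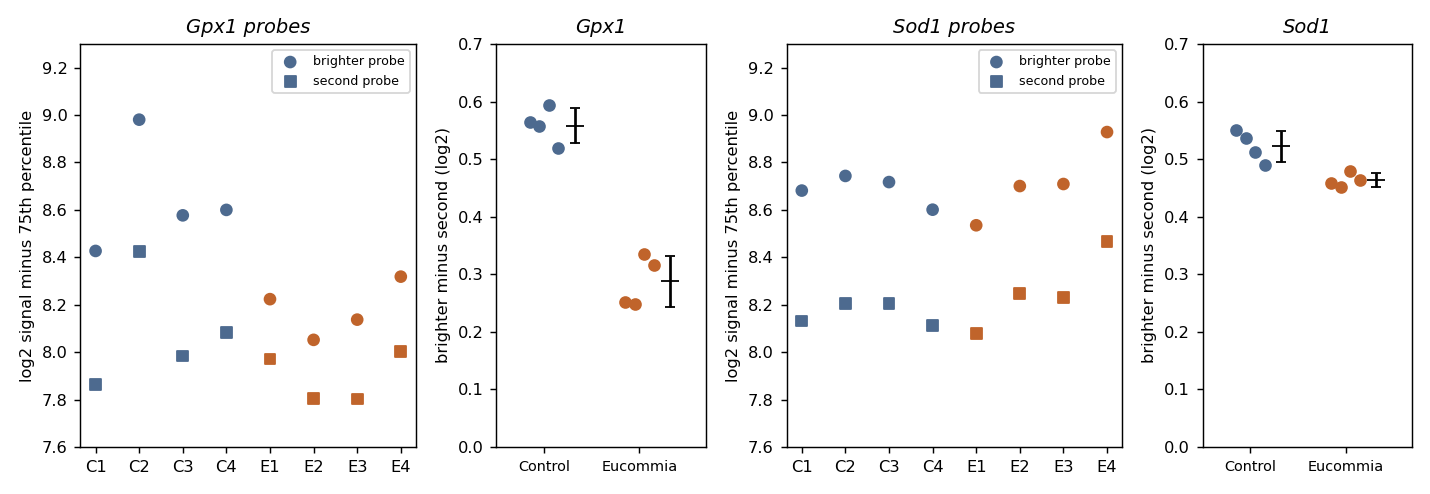
Both probes of Gpx1 and of Sod1 on each array (C, control, blue; E, Eucommia, orange; circles, brighter probe; squares, second probe), as log2 signal minus the array's 75th percentile, and beside each the gap between the probes with group mean and SD (n = 4). The Gpx1 gap is 0.56 on average in controls and 0.29 in the Eucommia group; the Sod1 gap is 0.52 and 0.46.

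The genes whose profile over the 8 arrays was most like that of Gpx1 were Cox7c, a subunit of cytochrome c oxidase, and Fut8, a fucosyltransferase. Likeness was the root mean square difference after centring each gene on its own mean, over 9965 other named genes, and it was 0.09 for both. Both were picked for likeness to Gpx1 on these same arrays, so a lower Eucommia group followed from the choice. Their tests are descriptive and lend Gpx1 no support. Cox7c had a difference of -0.53 ± 0.11 (SE; adjusted p = 0.0075 by limma), and Fut8 had -0.36 ± 0.12 (adjusted p = 0.0570). Cox7c passed in all 24 fits and Fut8 in 8 of them, among them quantile normalization (-0.40, adjusted p = 0.0335 by limma) and the fit without control replicate 1 (-0.43, 0.0324).

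Gpx4, the selenocysteine enzyme that reduces lipid peroxides within membranes, had overlapping groups. It stood at 5.29, 5.32, 5.41 and 5.30 on control replicates 1 to 4 and at 5.21, 5.17, 5.43 and 5.55 on Eucommia replicates 1 to 4. The Eucommia arrays enclosed the control arrays on both sides. The difference was 0.01, with an interval from -0.23 to 0.26 (adjusted p = 0.945 by limma). Whether Gpx1 and Gpx4 differ in this respect was not tested.

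Sod1, the cytosolic copper and zinc superoxide dismutase, overlapped fully between groups. It stood at 8.68, 8.74, 8.72 and 8.60 on control replicates 1 to 4 and at 8.54, 8.70, 8.71 and 8.93 on Eucommia replicates 1 to 4. Eucommia replicate 1 was the lowest of all and Eucommia replicate 4 the highest. The difference was 0.03 (interval -0.20 to 0.26, adjusted p = 0.855 by limma), and the second Sod1 probe gave 0.09 (interval -0.14 to 0.32). The gap between these probes did not pass the test between groups (-0.06 ± 0.06 SE, adjusted p = 0.515 by limma), although its control values, 0.49 to 0.55, lay above its Eucommia values, 0.45 to 0.48. The gaps of 28.9% of the 1574 genes did not overlap. With the other background correction the Sod1 gap changed sign, to 0.08.

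Sod2, the manganese enzyme of the mitochondrial matrix, did not pass the test. It stood at 0.52, 0.70, 0.42 and 0.50 on control replicates 1 to 4 and at 0.35, 0.32, 0.34 and 0.62 on Eucommia replicates 1 to 4. Of the Eucommia arrays, 3 lay below every control array and replicate 4 lay among the controls. The difference was -0.13 ± 0.11 (SE), with an interval from -0.37 to 0.12 (adjusted p = 0.445 by limma). Without Eucommia replicate 4 it was -0.20 and did not pass (adjusted p = 0.185 by limma).

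Catalase, the haem enzyme of peroxisomes, had overlapping groups. It stood at 5.41, 5.30, 5.51 and 5.72 on control replicates 1 to 4 and at 5.58, 5.56, 5.71 and 5.22 on Eucommia replicates 1 to 4. The lowest array was Eucommia replicate 4. The difference was 0.03, with an interval from -0.28 to 0.34 (adjusted p = 0.894 by limma).

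Among peroxiredoxins, Prdx1 and Prdx2 encode closely related cytosolic enzymes that thioredoxin recharges. Prdx1 stood at 7.12, 7.26, 7.28 and 7.5 on control replicates 1 to 4 and at 7.08, 7.33, 7.08 and 7.16 on Eucommia replicates 1 to 4. Its groups overlapped, with a difference of -0.13 (interval -0.38 to 0.12, adjusted p = 0.456 by limma). Prdx2 was the steadiest of the 10, at 3.76, 3.87, 3.88 and 3.84 on control replicates 1 to 4 and at 3.8, 3.85, 3.79 and 4.0 on Eucommia replicates 1 to 4. Its SD was 0.05 in controls and 0.10 in the Eucommia group, and its difference was 0.02 (interval -0.17 to 0.22, adjusted p = 0.885 by limma).

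Prdx3, the peroxiredoxin of mitochondria, had the smallest p after Gpx1. It stood at 3.93, 3.84, 3.87 and 3.98 on control replicates 1 to 4 and at 3.73, 3.62, 3.90 and 3.68 on Eucommia replicates 1 to 4. Only Eucommia replicate 3 reached into the control range. The difference was -0.17 ± 0.09 (SE), with an interval from -0.38 to 0.04, and it did not pass (adjusted p = 0.223 by limma; exact permutation p = 0.0857).

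Prdx5, found in mitochondria, peroxisomes and cytosol, stood at 6.64, 6.41, 6.70 and 6.65 on control replicates 1 to 4 and at 6.47, 6.57, 6.58 and 6.98 on Eucommia replicates 1 to 4. The highest value was again Eucommia replicate 4. The difference was 0.05 (interval -0.24 to 0.35, adjusted p = 0.815 by limma).

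Prdx6, which has a single active cysteine and also handles oxidised phospholipids, had the widest spread. It stood at 4.0, 3.78, 3.84 and 3.69 on control replicates 1 to 4 and at 3.76, 3.71, 3.84 and 4.71 on Eucommia replicates 1 to 4. Eucommia replicate 4 stood far above the other 7 arrays, which lay between 3.69 and 4.0. The Eucommia SD was 0.47, against 0.13 in controls, and the difference was 0.18 with an interval from -0.32 to 0.67 (adjusted p = 0.613 by limma). Without Eucommia replicate 4 the difference was -0.06 (adjusted p = 0.728 by limma).

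Eucommia replicate 4 was the highest Eucommia array for 7 of the 10 genes and the lowest for 1, Cat. The same array was the highest of its group in 51.7% of the 8960 brighter genes, so many other genes share that order. Without it, Gpx1 remained lower (-0.51, adjusted p = 0.0394 by limma).

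**Figure D3:**
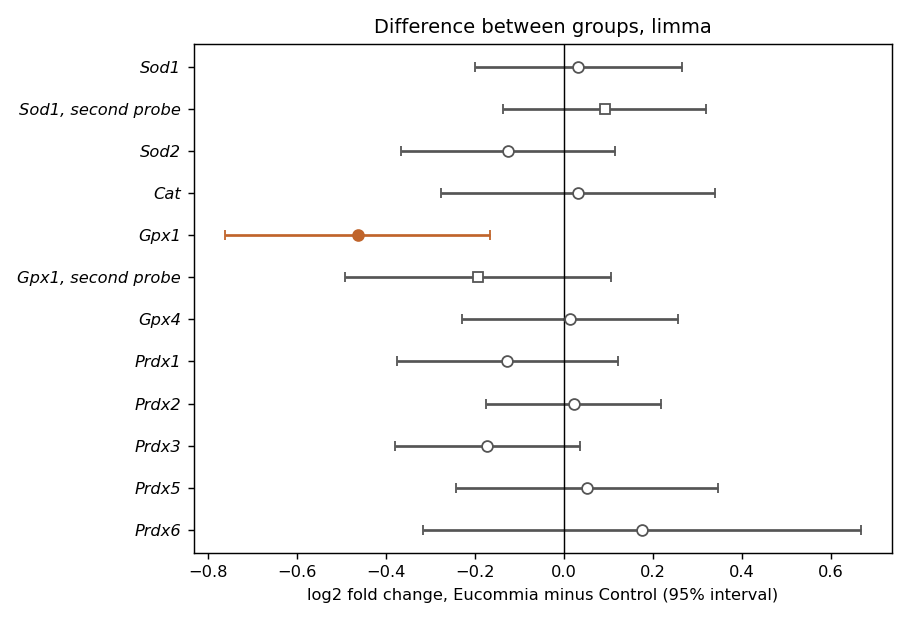
Difference in log2 signal, Eucommia minus control, with its 95% interval from limma (n = 4 arrays per group), for the 10 genes (circles) and the second probes of Sod1 and Gpx1 (squares); filled orange marks an adjusted p under 0.05. The interval of Gpx1 runs from -0.76 to -0.17, and those of the other 9 genes include 0.

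A p above the threshold does not show that these genes are equal in both groups, and the intervals say how large a difference they allow. For 8 of the 9 that did not pass, Prdx6 left out, they lay within -0.38 and 0.35. The direction of small differences changed with the scaling. With median centring, which moved the median of all genes from 0.02 to -0.24, Gpx1, Sod2, Prdx1 and Prdx3 were all called lower, and Gpx4, Cat, Sod1, Prdx2, Prdx5 and Prdx6 had values below 0. Taken relative to the median of all genes, Gpx1 lay at -0.53 to -0.30 under 5 scalings. The others tried shift each array by a constant and so give the reported value again. Sod2, Prdx1 and Prdx3 also lay below the median under all 5, with relative values of Prdx3 from -0.19 to -0.08. Cat, Prdx2, Prdx5 and Prdx6 lay above it under all 5, Sod1 in all but 1, and Gpx4 on either side.

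**Figure D4:**
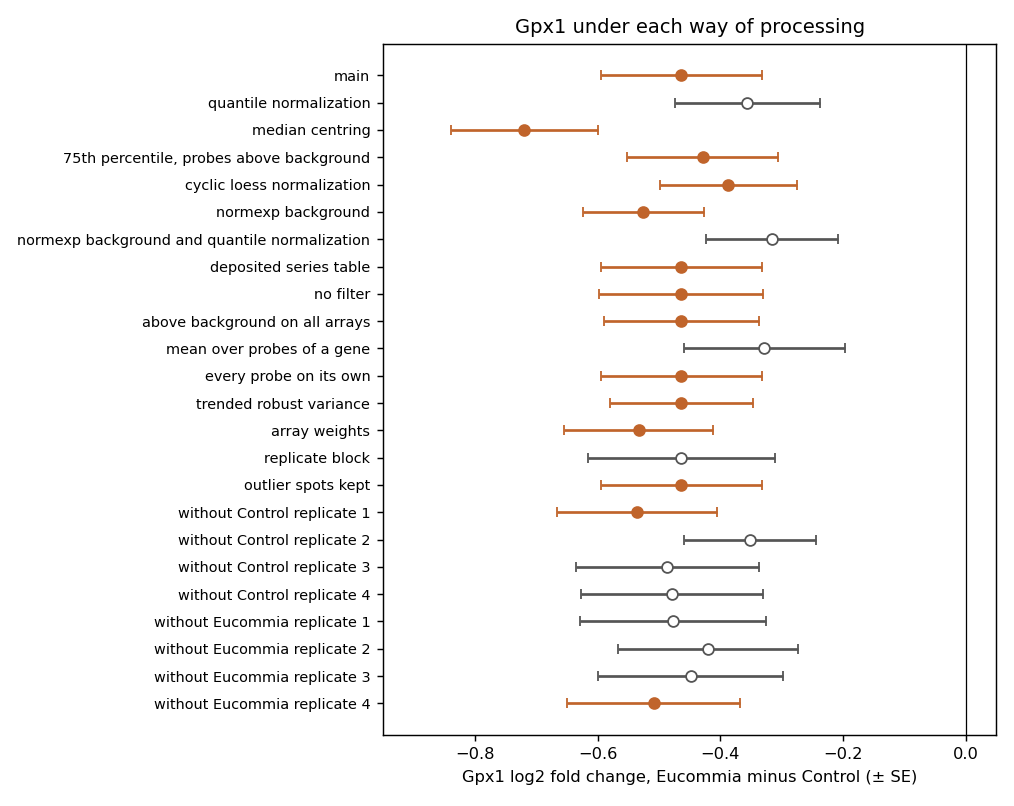
Gpx1 difference in log2 signal (Eucommia minus control, ± SE) under each way of processing; filled orange marks an adjusted p under 0.05 by limma. The difference lies between -0.72 and -0.32 throughout, and 14 of the 24 fits pass. The fit on the deposited series table repeats the reported one.

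Promoter windows were searched for the core of the antioxidant response element, TGACNNNGC, which NRF2 binds to switch on many antioxidant genes. On both strands, 2 of the 9 enzyme genes with a window held it, Prdx1 and Sod2. Counted by window, 2 of 11 enzyme windows held it, and 3373 of all 33469 windows did, 10.08%. The Prdx1 and Sod2 windows are printed so that the matched letters, in capitals on the opposite strand, can be seen. The Prdx1 window is chr5:135383656-135383905, plus strand, with the match starting 135 bases before the gene start. The Sod2 window is chr1:50050169-50050418, minus strand, with the match starting 35 bases before, both in build GRCr8 from RefSeq.
Prdx1: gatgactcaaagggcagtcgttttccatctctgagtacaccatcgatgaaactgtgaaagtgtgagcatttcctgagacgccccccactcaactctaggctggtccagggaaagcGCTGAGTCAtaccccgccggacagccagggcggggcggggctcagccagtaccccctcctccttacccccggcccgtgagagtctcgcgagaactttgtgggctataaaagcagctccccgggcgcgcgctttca
Sod2: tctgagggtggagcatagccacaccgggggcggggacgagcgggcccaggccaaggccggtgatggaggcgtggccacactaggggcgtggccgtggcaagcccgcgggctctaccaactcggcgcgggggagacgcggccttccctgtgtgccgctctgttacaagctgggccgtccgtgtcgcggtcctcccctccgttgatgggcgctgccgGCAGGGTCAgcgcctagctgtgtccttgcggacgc
Neither gene passed the test between groups. A window without a match says only that these letters are not in it.

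The enzymes work within a wider supply chain, described here by lists of 88 other genes tested, of which 2 were higher and 8 lower. These are 2.27% and 9.09%, beside 18.4% and 6.17% of all genes, and 3.73% and 5.96% of the 8960 brighter genes. Many of the 88 are bright, so the share over all genes is no matched background for them. The 2 higher calls were dimmer genes, Srxn1 and Pex26, with mean signals of -1.47 and -2.10. Higher calls were common among dim genes: of the 4623 over all genes, 334 were among the 8960 brighter genes. A dim gene called higher is therefore not unusual here. Whether the lists differ from genes of like brightness was not tested. The 8 lower calls were 3 to 6 when single arrays were left out: 5 without control replicate 3, 3 without control replicate 4, 5, 4, 3 and 4 without Eucommia replicates 1, 2, 3 and 4. With median centring 34 were lower.

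Other members of the same families gave 0 calls among 7 tested by limma, 2 of them with an unadjusted p under 0.05, and a median of -0.05. Gpx3, the secreted plasma peroxidase, had 0.38 ± 0.13 (SE; adjusted p = 0.0718 by limma), and Sod3, the extracellular dismutase, had 0.55 ± 0.22 (adjusted p = 0.115). Without control replicate 4 Gpx3 passed (0.45, adjusted p = 0.0468 by limma), as it did with normexp background correction (0.25, 0.0355) and array weights (0.43, 0.0354). Without control replicate 3 Sod3 passed (0.72, 0.0349).

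In the thioredoxin system, 1 of 9 genes was higher and 1 lower, with a median of -0.02. Srxn1, sulfiredoxin, repairs peroxiredoxins whose active cysteine has been overoxidised. It stood at -1.98, -1.62, -1.83 and -1.66 on control replicates 1 to 4 and at -1.21, -1.17, -1.18 and -1.14 on Eucommia replicates 1 to 4. The groups were well apart and the Eucommia arrays close together. Srxn1 rose by 0.60 ± 0.10 (SE; adjusted p = 0.0022 by limma), and it passed in all 24 fits, with 0.20 as the lowest difference (normexp background with quantile normalization). Sesn2, a stress-induced sestrin, fell by 0.49 ± 0.13 (SE; adjusted p = 0.0236 by limma). Leaving out control replicate 1, 3 or 4 ended this call, as did leaving out Eucommia replicate 2, 3 or 4 (adjusted p 0.0521 to 0.0659 by limma). Thioredoxin itself (Txn1, -0.02) and the reductases Txnrd1 (-0.10) and Txnrd2 (-0.0034) did not pass.

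In glutathione supply 1 of 11 genes was lower and 0 higher, with a median of -0.02. Ggct, which breaks down gamma-glutamyl dipeptides, fell by 0.61 ± 0.19 (SE; adjusted p = 0.0455 by limma) with overlapping groups. Its call was lost without any single array other than control replicate 1 (adjusted p 0.0526 to 0.120 by limma). It was also lost with the percentile taken over probes that all arrays detect (0.0506). Gclm, the modifier subunit of the rate-limiting ligase, had -1.10 ± 0.45 (adjusted p = 0.114), near the detection limit, on 3 arrays of each group well above background. Without control replicate 1 Gclm passed (-1.55, adjusted p = 0.0046 by limma), and it also did with quantile normalization (-1.35, 0.0407), median centring (-1.35, 0.0314) and array weights (-1.33, 0.0258). With normexp background correction it shrank to -0.19 (adjusted p = 0.336 by limma), and to -0.25 (0.123) with quantile normalization added. Glutathione reductase, Gsr, had -0.02. In NADPH supply, which feeds both systems, 0 of 12 genes passed by limma, 0 had an unadjusted p under 0.05, and Idh2, a mitochondrial source of NADPH, had -0.22 (adjusted p = 0.244 by limma). With median centring Idh2 passed (-0.47, adjusted p = 0.0135 by limma). Its second probe gave -0.36 without overlap and passed (adjusted p = 0.0235 by limma with every probe tested on its own). The mean over both Idh2 probes did not pass (-0.29, adjusted p = 0.0694 by limma).

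Glutathione peroxidases need selenium handling and selenocysteine insertion for their selenocysteine. The list for these also holds other selenoproteins, such as Selenos and Dio1, which are not part of that supply. It had 2 of 16 genes lower and 0 higher, with a median of -0.09. Scly, which frees selenium from selenocysteine, stood at 6.14, 6.18, 6.40 and 6.45 on control replicates 1 to 4 and at 5.88, 5.91, 5.91 and 6.05 on Eucommia replicates 1 to 4. It fell by 0.35 ± 0.10 (SE; adjusted p = 0.0339 by limma) without overlap. Its second probe gave -0.28, and the mean over both did not pass (-0.32, adjusted p = 0.0603 by limma). Leaving out control replicate 3 or 4 also ended the call, as did Eucommia replicate 1, 2 or 3 (0.0800 to 0.0881). Selenos, a selenoprotein of the endoplasmic reticulum, fell by 0.61 ± 0.12 (SE; adjusted p = 0.0063 by limma) and passed in all 24 fits.

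Enzymes that make peroxide or superoxide had 3 of 17 genes lower and 0 higher, with a median of -0.16 and 15 values below 0. Of all genes tested 47.4% were below 0, and of the brighter genes 57.7%. Xdh, xanthine dehydrogenase, whose oxidase form makes both, stood at 2.51, 2.36, 2.33 and 2.41 on control replicates 1 to 4 and at 1.94, 1.90, 1.93 and 2.02 on Eucommia replicates 1 to 4. It fell by 0.46 ± 0.08 (SE; adjusted p = 0.0033 by limma) with a clear gap between groups, and passed in all 24 fits. Acox3, a peroxisomal acyl-CoA oxidase, fell by 0.49 ± 0.15 (adjusted p = 0.0372 by limma). Cybb, the catalytic subunit of the phagocyte NADPH oxidase, fell by 0.62 ± 0.19 (adjusted p = 0.0477 by limma). The Acox3 call ended when control replicate 1, 2 or 4 was left out, and likewise for Eucommia replicate 1, 3 or 4 (adjusted p 0.0537 to 0.0845 by limma). The Cybb call ended when control replicate 1 or 4 was left out, and likewise for each Eucommia array (0.0588 to 0.113). With the percentile over probes that all arrays detect, neither passed (0.0640 for Acox3 and 0.0680 for Cybb), nor with array weights (0.0797 and 0.0804). With normexp background correction Cybb was -0.29, and -0.37 with quantile normalization added.

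In peroxisome assembly, on which catalase depends for its import, 1 of 18 genes was higher and 1 lower, with a median of 0.01. Pex26, a membrane anchor of the import machinery, rose by 2.07 ± 0.18 (SE; adjusted p = 4.4e-05 by limma), from -3.14 ± 0.31 to -1.06 ± 0.25 (SD, n = 4 each). The difference shrank to 1.07 with normexp background correction. With quantile normalization added it was 1.01, the lowest over the alternatives. Pex2, a ubiquitin ligase of the same machinery, fell by 0.42 ± 0.10 (adjusted p = 0.0145 by limma), and both passed in all 24 fits.

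**Figure D5:**
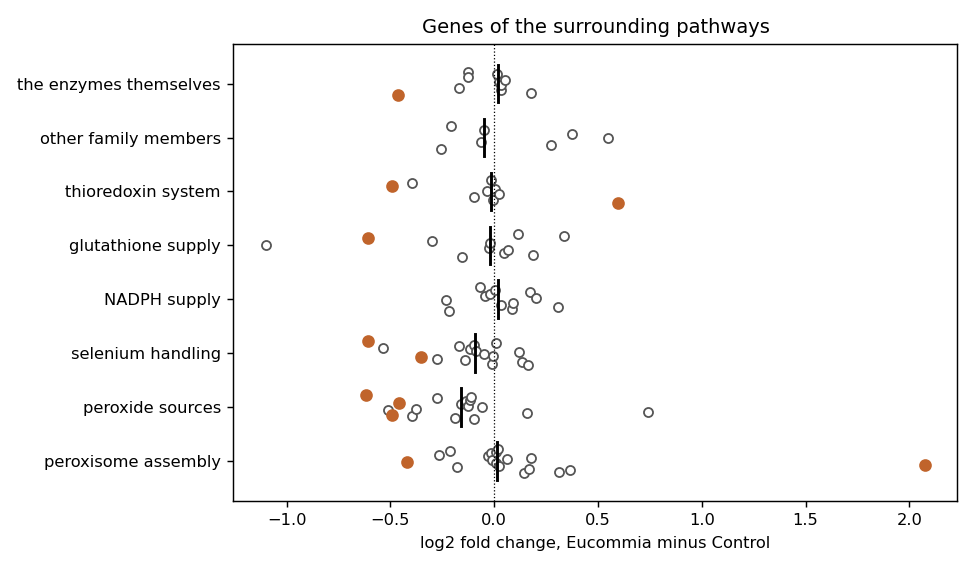
Difference in log2 signal, Eucommia minus control, of each gene tested in the enzyme group and in the surrounding lists; filled orange marks an adjusted p under 0.05 by limma and the bar is the list's median. Pex26 lies far right at 2.07, and the enzymes themselves lie between -0.46 and 0.18.

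Blood and immune cells also hold these enzymes, and their markers were measured beside them. Hepatocyte markers had a median of -0.18 with 1 of 12 lower (Tf, transferrin, -0.55), and their summed signal, as multiples of the 75th percentile, ran from 5215 to 5920 in controls and from 4660 to 5371 in the Eucommia group. Red cell markers, whose cells are rich in Gpx1, Cat and Prdx2, had 2 of 9 lower. Their summed signal was 475 to 684 in controls and 405 to 606 in the Eucommia group. The red cell regulator Klf1 had -0.91 ± 0.16 (SE; adjusted p = 0.0031 by limma) and the membrane protein Epb42 had -0.65 ± 0.18 (0.0293). Gata1 and Rhag were not above background on enough arrays. With normexp background correction Klf1 lost its call (-0.18, adjusted p = 0.0756 by limma). Epb42 was then -0.25. With quantile normalization added, Klf1 was -0.22 and Epb42 -0.30. Epb42 lost its call when control replicate 1 or 3 was left out, and likewise for Eucommia replicate 1, 2 or 4 (0.0569 to 0.0836). Macrophage markers had 0 of 11 past the threshold by limma, 2 (Marco and Adgre1) with an unadjusted p under 0.05, a median of -0.45, and summed signals of 116 to 207 in controls and 93.8 to 183 in the Eucommia group. The part of these cells in the Gpx1 or Cybb values was not tested.

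Markers of 3 other cell types gave low summed signals in both groups. Among 6 neutrophil markers, Prtn3 was higher, while for Elane and Csf3r 0 of 4 control arrays were well above background, and both passed the filter through the 4 Eucommia arrays alone. The other 3 had values below 0, Fcgr3a -0.57 (adjusted p = 0.125 by limma), S100a9 -0.13 and S100a8 -0.08. The neutrophil sums ran from 1.99 to 2.55 in controls and from 2.61 to 3.54 in the Eucommia group. Pancreatic acinar genes had 4 of 10 higher, Ctrb1, Cela2a, Cel and Prss2, with sums of 2.22 to 2.41 and 3.37 to 4.67. Skeletal muscle genes had 4 of 5 higher, Mb, Tnni2, Actn3 and Atp2a1, with sums of 1.85 to 2.16 and 3.39 to 3.66. Other listed genes were on the array but not above background on enough arrays. These were Acta1, Ckm, Myh1, Myh2, Myh4 and Tnnt3 of muscle, and Ngp, Camp and Cxcr2 of neutrophils. Of the acinar genes they were Prss1, Cela1, Cela3b, Cpa1 and Pnliprp1. The part of these 3 cell types in the enzyme values was not tested.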

How the data were processed

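Liver RNA (500 ng per array, per the labels' protocols) was measured on 8 arrays, 4 per group. The deposited scanner files hold intensity values from Agilent Feature Extraction 10.1.1.1, which per the file headers had local background removed and a spatial trend taken out, array by array. The other flags in the deposited files mark control, outlier, saturated and well-above-background spots. The deposited series table holds the same processed signals (100% of 43379 non-control spots identical).

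Processed signals were put on the log2 scale, each array's 75th percentile was subtracted, outlier spots were left out and spots of a probe averaged. Of 41012 probes, 27724 were well above background on at least 4 of 8 arrays. RefSeq accessions (GRCr8 table) named 16336 probes. A gene is its brightest probe and an unnamed probe is a gene of its own, 25128 in all. Differences between groups were tested with limma (version 3.58.1, R 4.3.3), 2-sided, with Benjamini-Hochberg adjustment over all of them and a threshold of 0.05. The members, lists and tests were chosen with earlier results of these data known.

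Named genes are all 10 enzymes, the list genes past the threshold or, where fewer than 2 passed, the 2 with the smallest p, and the 2 profiles most like a gene that passed. Txn1, Txnrd1, Txnrd2, Gsr and the marker genes were named after their values were seen. Results of some list genes that this rule would name are not reported here. Same-numbered arrays did not deviate together over all genes (correlations of deviations -0.10 to -0.03). This gives no sign of pairing by number but cannot exclude it. On simulated data for this comparison with 25128 genes, 94% of changes of -2, 66% of -1 and 18% of -0.5 (log2) were called, beside 9 unchanged genes. Only 50 genes were changed per size, against 24.6% of genes called in the data, so the adjusted threshold was stricter there. Spreads came from all genes (median SD 0.20 in controls, 0.17 in Eucommia), against 0.12 and 0.15 for the 10 enzymes. These shares are therefore not the sensitivity for the enzymes. Precision is limited by how few arrays there are. Alternatives were other normalizations, normexp background correction (offset 50, on median signals), filters, probe rules, variance models, a block on the replicate number and leaving out single arrays. The fits of the probe gaps and of brighter genes alone were added after seeing the data.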

Additional observations from a re-analysis of the deposited data

Results flagged for a closer look

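In 54 groups of 4 arrays, 4 held an array far from the other 3, where chance gives about 1 in 20. Sod2 was 0.62 on Eucommia replicate 4, against 0.32 to 0.35 on the other Eucommia arrays. Prdx6 was 4.71 on the same array, against 3.71 to 3.84. Scly was 6.05 on it, against 5.88 to 5.91. Acox3 was -0.45 on control replicate 3, against -0.25 to -0.24 on the other controls.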

How the results depend on the processing

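Of 24 fits (the reported one, 15 other settings and 8 with an array left out), Gpx1 passed in 14, with differences from -0.72 to -0.32 and adjusted p by limma from 0.0019 to 0.106. The fit on the deposited series table repeats the reported one, as its signals are identical. Other filters, every probe on its own and outlier spots kept also left the Gpx1 difference at -0.46. The 24 fits are therefore not independent checks, for Gpx1 or for any other gene. The count of the 10 enzymes called lower, 1 as reported, was 0 with the mean over probes, with the replicate block and with quantile normalization, whether or not normexp preceded it, and 4 with median centring. It was 0 to 1 with an array left out. No enzyme was called higher in any of these fits. The replicate block (the label number as a block) took Gpx1 to an adjusted p of 0.0911 by limma and the count of all genes called lower from 1551 to 988. The block left the Gpx1 difference at -0.46. Pairing by number was not seen but is not excluded, so the block is given only as an alternative.

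Other pathway genes called lower, 8 as reported, were 34 with median centring, 5 with the percentile over probes that all arrays detect and 3 to 6 with an array left out. Those called higher, 2 as reported, were 7 with normexp and quantile normalization. All genes called lower were 2956 with quantile normalization, 7954 with median centring, 2435 with cyclic loess, 2713 with normexp and quantile normalization, 7380 without a filter and 913 to 1338 with an array left out. All genes called higher, 4623 as reported, were 2323 when restricted to probes above background on all arrays. Tested alone, the brighter genes gave 313 higher and 432 lower. The higher share of called genes, 74.9%, was 58.4% with quantile normalization, 32.3% with median centring, 64.8% with cyclic loess and 59.2% with normexp and quantile normalization.

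Differences that changed sign had not passed. With median centring Gpx4 was -0.24, Cat -0.22, Sod1 -0.22, Prdx2 -0.23, Prdx5 -0.20 and Prdx6 -0.081. With normexp Gpx4 was -0.099 and Sod1 -0.043, and with quantile normalization added Gpx4 was -0.053. With array weights Gpx4 was -0.059, Sod1 -0.015, Prdx2 -0.015 and Prdx5 -0.0095. With an array left out, Gpx4 ran from -0.057 to 0.070, Cat from -0.033 to 0.13, Sod1 from -0.038 to 0.094, Prdx2 from -0.025 to 0.045, Prdx5 from -0.058 to 0.11 and Prdx6 from -0.060 to 0.27. The Sod1 probe gap was 0.076 with normexp. The cause of these changes was not tested. A slide block was not run, since each slide holds 1 group.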
